A study of Caenorhabditis elegans with 2 samples.

Results

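The 10 genes described here, of 19973 protein-coding genes on the nuclear chromosomes of Caenorhabditis elegans, encode DNA-binding proteins. Their families are POU, paired-like, Pax and zinc finger homeodomain, with 2 genes of other families. Most of the 10 genes are known as selectors of neuron identity. They were chosen by name: unc-86, ceh-6 and ceh-18 (POU), unc-4, unc-30 and unc-42 (paired-like homeodomain), vab-3 (the Pax6 relative), zag-1 (a ZEB-type zinc finger homeodomain), vab-7 (the even-skipped homeodomain) and unc-3 (a COE factor, related to vertebrate EBF). The last 2 belong to none of the 3 families of the working name, and ceh-18 is best known from gonadal sheath cells, where it acts in the control of oocyte maturation, rather than from neurons. For each gene, the peak summits of ZFH-2::GFP were read from 3 kb upstream to 1 kb downstream of the gene, called the gene window here.

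The measurement was ChIP-seq (sequencing of DNA precipitated with a bound protein) with an antibody against GFP. The worms, strain RW12167, carried the CRISPR allele st12167, which fuses GFP to zfh-2 at its own locus with a loxP-flanked unc-119(+) marker, in an unc-119(tm4063) background. Whole young adults, 64.5 hours old after synchronisation as starved L1 larvae, formed 1 group of 2 biological replicates, with no other genotype or treatment. The lists come from whole animals, so the neurons in which these selectors act cannot be told apart from all other cells, and a region occupied in few cells cannot be told apart from one occupied weakly in many. Both replicates together gave the conservative list of the authors, with 7085 nuclear peaks. The lists hold no read counts, so sequencing depth is unknown, and the authors' signal is used only to rank peaks within a list.

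Terminal selectors are transcription factors that switch on, and keep on, the genes that give a neuron type its transmitter, receptors and channels. Many of them also maintain their own transcription and work in pairs on shared target genes. ZFH-2, the precipitated protein, is itself a zinc finger homeodomain factor, related to vertebrate ZFHX3 and ZFHX4.

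The sequences around 8 of the 12 conservative summits at these genes are given first, since the results return to their position, base composition and motifs. They are reference sequence (RefSeq, WBcel235, the same assembly as ce11) on the forward strand, 5′ to 3′. Capitals mark CACCTG, an E-box that vertebrate ZEB proteins bind, or its reverse complement. The strongest summit of each gene comes first, then the 3 zag-1 summits with a CACCTG, which were chosen after the matches were seen. For unc-42 only the bases upstream of its annotated 5′ end are shown.
unc-42, upstream side of the summit, chrV:9769392-9769435: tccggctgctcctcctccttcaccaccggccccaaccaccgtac
vab-7, exon 2, chrIII:10921628-10921728: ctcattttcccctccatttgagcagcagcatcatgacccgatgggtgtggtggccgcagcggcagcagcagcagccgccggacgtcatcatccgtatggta
unc-3, intron 1, chrX:14776502-14776602: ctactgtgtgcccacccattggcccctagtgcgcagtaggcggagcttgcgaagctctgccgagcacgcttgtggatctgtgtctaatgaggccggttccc
zag-1, exon 5, chrIV:3859691-3859791: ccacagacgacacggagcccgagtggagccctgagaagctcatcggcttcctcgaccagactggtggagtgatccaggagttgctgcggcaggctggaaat
ceh-18, upstream, chrX:3858019-3858119: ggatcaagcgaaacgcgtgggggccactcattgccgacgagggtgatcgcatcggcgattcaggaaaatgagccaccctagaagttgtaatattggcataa
zag-1, upstream, chrIV:3854684-3854784: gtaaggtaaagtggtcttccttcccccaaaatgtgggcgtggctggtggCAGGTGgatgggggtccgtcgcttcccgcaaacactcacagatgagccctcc
zag-1, intron 1, chrIV:3856310-3856410: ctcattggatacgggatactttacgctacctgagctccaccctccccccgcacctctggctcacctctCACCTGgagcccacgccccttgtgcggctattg
zag-1, intron 4, chrIV:3859072-3859172: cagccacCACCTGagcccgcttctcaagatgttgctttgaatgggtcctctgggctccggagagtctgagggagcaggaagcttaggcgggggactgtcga

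Of the 10 selector genes, 5 had at least 1 conservative summit in the gene window (unc-42, vab-7, unc-3, zag-1 and ceh-18), against 28.4% of all protein-coding genes. The selector genes have long windows, with a median of 9.56 kb against 6.03 kb for all genes. Among all genes with a window at least as long as the shortest of the 10, that of unc-4 with 6626 bp, 39.1% had a summit, and 5 of 10 genes is too close to this share to set them apart. The 10 windows held 12 summits over 117 kb, or 0.103 per kb, against 0.0739 per kb over all gene windows and 0.0707 per kb over the nuclear genome. Without zag-1 the other 9 genes held 6 summits. zag-1 had 0.617 per kb, against 0.103 to 0.143 per kb at the others with a summit and 0.0 at the rest. The higher rate of the 10 windows thus depended on zag-1.

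Within the promoter window, which covers 1000 bp before and 200 bp after the annotated 5′ end, 4 of the 10 genes had a conservative summit (unc-42, ceh-18, unc-3 and zag-1), against 8.82% of all genes. This count depended on the replicate. In the thresholded list of replicate 1 the same window held a summit at 4 of the 10 genes, against 6.47% of all genes. In that of replicate 2 it did at 1 of the 10, unc-42, against 6.23% of all genes. The zag-1 summit of replicate 2 lay at -1109 bp, just outside this window. Over the whole gene window, 5 genes had a summit in replicate 1's own thresholded list, against 21.1% of all genes, and 4 genes in replicate 2's, against 22.3% of all genes. The gene without one in replicate 2 was ceh-18. The own-list shares of all genes cover windows of every length and were not matched for it.

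**Figure D1:**
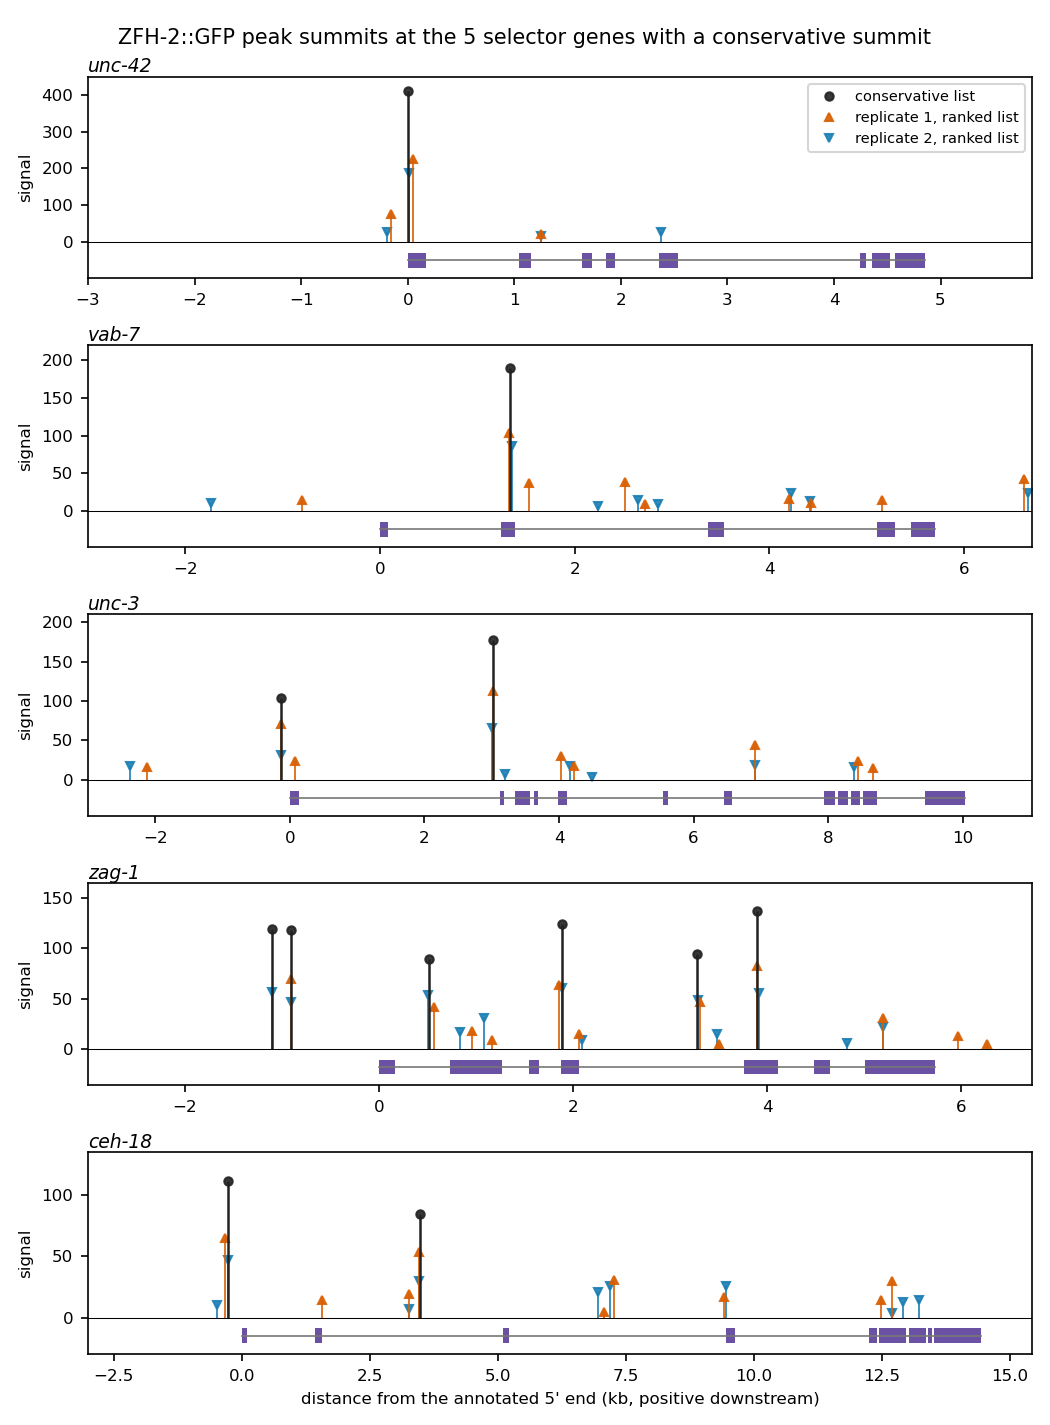
Peak summits at the 5 selector genes with a conservative summit. Each panel plots the authors' signal (no stated unit, a separate axis range per gene, and not comparable between lists) against the distance from the annotated 5′ end in kb, in the direction of transcription. Circles are conservative summits, upward triangles the ranked list of replicate 1 and downward triangles that of replicate 2; boxes below are annotated exons. zag-1 has 6 conservative summits from -1109 to +3898 bp, and unc-42 has 1 at +6 bp.

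zag-1 held the most summits of the 10 genes. It encodes the worm ZEB factor, which acts in axon guidance and in the choice between neuron fates, and which is known to repress its own transcription. Its gene (WBGene00006970, chrIV:3855843-3861569, forward strand) had 6 conservative summits in a window of 9727 bp, or 0.617 per kb. Of all protein-coding genes, 0.706% (141 genes) had 6 or more. This share covers windows of every length, with a median of 6.03 kb. It was not computed for long windows alone or with overlapping peaks merged.

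Positions are given from the annotated 5′ end, with upstream positions negative. The strongest zag-1 summit lay in coding exon 5 at +3898 bp, with a signal of 138 and rank 2718 of 7085. The next lay in coding exon 4 at +1882 bp, with a signal of 124. In the conservative list these exon summits were the strongest of the gene, and both overlapped a peak in the own list of each replicate. This order did not repeat in the own lists. In replicate 1 the peak at -905 bp (signal 69.8) exceeded the one matching exon 4 (63.2), whose summit there lay in intron 3. In replicate 2 the peak at -1109 bp (57.0) exceeded the one in exon 5 (55.4).

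Upstream of zag-1, summits at -1109 bp (signal 120) and -904 bp (signal 119) stood 205 bp apart in overlapping peaks. The conservative list counts both, but each replicate's own list had 1 summit there, at -905 bp with a signal of 69.8 in replicate 1 and at -1109 bp with 57.0 in replicate 2. As 1 merged region they would leave zag-1 with 5 summits and the 10 genes with 11. The summit kept would be the one at -1109 bp, outside the promoter window. The number of the 10 genes with a promoter summit would then be 3.

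In the conservative list the 2 intronic zag-1 summits were the weakest of the 6. The intron 4 summit at +3279 bp had a signal of 94.4 and a peak in the own list of replicate 2 but not of replicate 1. The intron 1 summit at +517 bp had a signal of 89.4 and rank 5475, and neither own list held it. In the longer ranked lists it was present in both replicates, with a signal of 41.3 in replicate 1 and 54 in replicate 2. After the upstream pair, the gaps between neighbouring summits were 1421, 1365, 1397 and 619 bp.

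The strongest summit of all 10 genes lay at unc-42, a paired-like factor that specifies command interneurons and their glutamate receptor genes. The gene (WBGene00006778, chrV:9764534-9769391, reverse strand) had 1 conservative summit at +6 bp, in the 5′ untranslated part of exon 1. The signal was 412, rank 141 of 7085, and among the 5678 genes with a summit unc-42 was in place 179 by its strongest one. Replicate 1 had it at rank 157 of its own list with a signal of 227, and replicate 2 at rank 139 with a signal of 187. Both replicates also listed a weaker summit on its upstream side, at -156 bp (signal 75.8) in replicate 1 and at -195 bp (signal 28.4) in replicate 2. The conservative peak, 700 bp wide, covers both positions. The summit also lay in the gene window of a neighbouring gene, F46B6.2.

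vab-7, which sets the identity of DB motor neurons and the pattern of the posterior body, had its summit inside the coding sequence. The gene (WBGene00006873, chrIII:10920344-10926041, forward strand) had 1 conservative summit at +1334 bp in exon 2, with a signal of 190 and rank 1354. Its signal was 103 in replicate 1 and 86.4 in replicate 2, each in that replicate's own list, at +1329 and +1353 bp. There was no conservative summit in its promoter window. The ranked lists added weaker peaks at like positions in both replicates: past the 3′ end at +6620 bp in replicate 1 (signal 41.9) and +6654 bp in replicate 2 (23.4), in intron 2 at +2516 bp (38.7) and +2650 bp (14.96), and in intron 3 at +4202 bp (15.7) and +4218 bp (23.8). Upstream, each had 1 unshared weak peak, at -798 bp in replicate 1 (signal 14.3) and at -1734 bp in replicate 2 (signal 11.0). The printed exon 2 sequence contains a run of cag repeats.

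unc-3, the selector of cholinergic motor neurons of the ventral cord, had 2 conservative summits (WBGene00006743, chrX:14773538-14783568, forward strand). The stronger, in intron 1 at +3014 bp, had a signal of 177 and rank 1620. It had a signal of 113 in replicate 1 and 65.9 in replicate 2, and stood in both own lists. The promoter summit at -128 bp, which also lay in the gene window of a neighbour, Y16B4A.2, had a signal of 104 and rank 4394, with a signal of 70.2 in the own list of replicate 1. Replicate 2 had it only in the ranked list, with a signal of 31.2 and a score of 563, below the lowest score of 830 in the thresholded lists. The score, at most 1000, is the authors' measure of how well a peak repeats.

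ceh-18, the POU gene of the gonadal sheath, had the lowest strongest summit of the 5 (WBGene00000441, chrX:3843367-3857797, reverse strand). The promoter summit at -272 bp had a signal of 112, rank 3938, with a signal of 65.1 in the own list of replicate 1 and 47 in the ranked list of replicate 2. The intron 2 summit at +3478 bp had a signal of 84.5 and rank 5870, and no peak in either own list. Its ranked peaks had a signal of 53.4 in replicate 1 and 30.3 in replicate 2. Neither ceh-18 summit was in the own list of replicate 2.

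**Figure D2:**
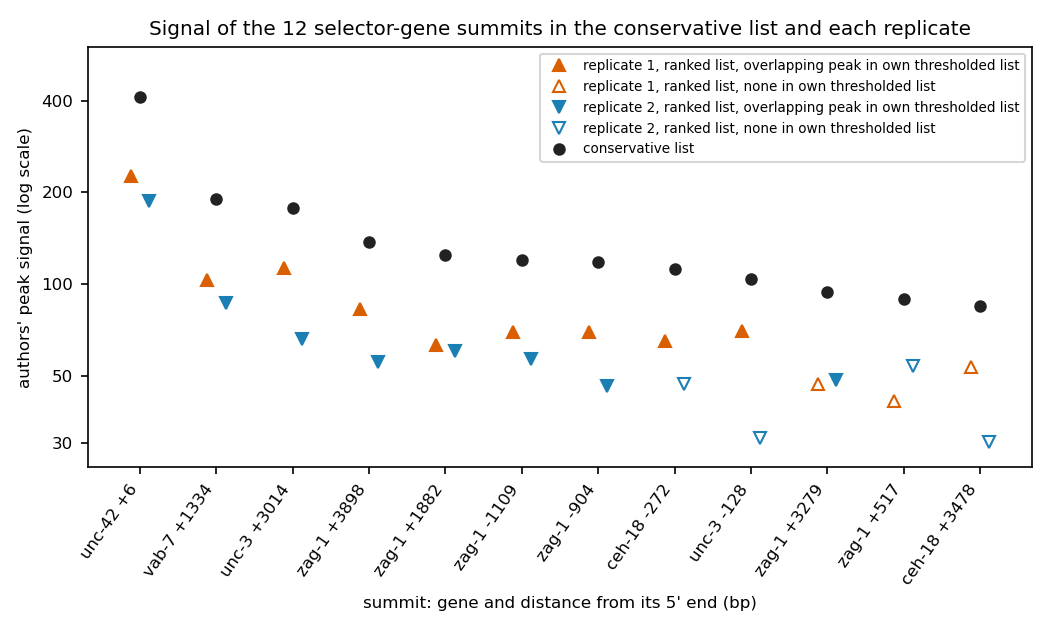
Authors' signal (log axis, no stated unit, not comparable between lists) of the 12 selector-gene summits, ordered by conservative signal. Circles are the conservative list. Upward triangles are the overlapping peak in the ranked list of replicate 1, and downward triangles that of replicate 2. Filled triangles have a peak in that replicate's own thresholded list; the 2 upstream zag-1 summits share 1 peak in each own list, and also their replicate 1 ranked peak. The 7 strongest summits are filled in both replicates.

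Of the 12 summits, 7 (58.3%) overlapped a peak in both own lists, against 48.3% of all 7085 summits. The upstream zag-1 pair counts as 2 of these although both match the same peak in each own list. With 1 summit per merged region the count was 6 of 11 (54.5%), against 45.6% of all, and with an overlap of at least 50% of the peak length it was 5 of 12 (41.7%), against 39.8% of all. A further 3 (25%) had a peak in 1 own list, against 23.8% of all, and 2 (16.7%) in neither, against 27.9% of all. The 7 were the strongest of the 12 in the conservative list, as the plot of signal by replicate shows. All 12 had a peak in each replicate's ranked list. The median signal was 119 for the 12 summits and 119 for all summits, and 6 of the 12 were in the stronger 50% of the list.

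The other 5 genes had no conservative summit and no summit in either own list: unc-86, ceh-6, unc-4, unc-30 and vab-3. The ranked lists are long and reach weak peaks. In them 7 of the 10 genes had a summit in replicate 1, against 50.1% of all genes, and 8 in replicate 2, against 53.7% of all genes. ceh-6 and unc-4 had none in either ranked list, as did 44.3% of all genes. The ranked-list shares of all genes were not matched for window length either.

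unc-30, the Pitx relative that specifies GABAergic motor neurons, was the nearest of these 5 to a call (WBGene00006766, chrIV:13118977-13124406, forward strand). Replicate 1 had 6 ranked summits and replicate 2 had 5. The strongest, at +70 bp in replicate 1, had a signal of 43.9 and a score of 589, and no peak of replicate 2 stood there. In the last intron both replicates had one, at +4376 bp in replicate 1 (signal 33.4, score 402) and at +4346 bp in replicate 2 (signal 18.4, score 206). Both also had a weaker one at +2860 bp in replicate 1 (signal 23.5, score 320) and at +2821 bp in replicate 2 (signal 14.1, score 78).

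unc-86, a Brn3-type POU factor that specifies touch receptor and serotonergic HSN neurons, had 1 ranked summit in all (WBGene00006818, chrIII:8212740-8216336, reverse strand). It was in replicate 2 at -1981 bp, with a signal of 10.9 and the lowest score of that list, 78. vab-3, which patterns the head, spans the longest window of the 10 (WBGene00006870, chrX:10499890-10519580, forward strand, 23691 bp). Its ranked summits lay near the 3′ end: 1 in replicate 1 at +17028 bp (signal 10.6) and 4 in replicate 2, the strongest at +16320 bp (signal 26.1, score 490). The window thus held weak ranked peaks in its last part and none around the 5′ end.

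ceh-6, a POU factor of the excretory cell and some neurons, is at chrI:8498112-8502604 on the reverse strand (WBGene00000431). unc-4, which with the Groucho protein UNC-37 sets the synaptic input of VA motor neurons, is at chrII:9897751-9900376 on the reverse strand (WBGene00006744). Both windows were empty in every list examined.

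**Figure D3:**
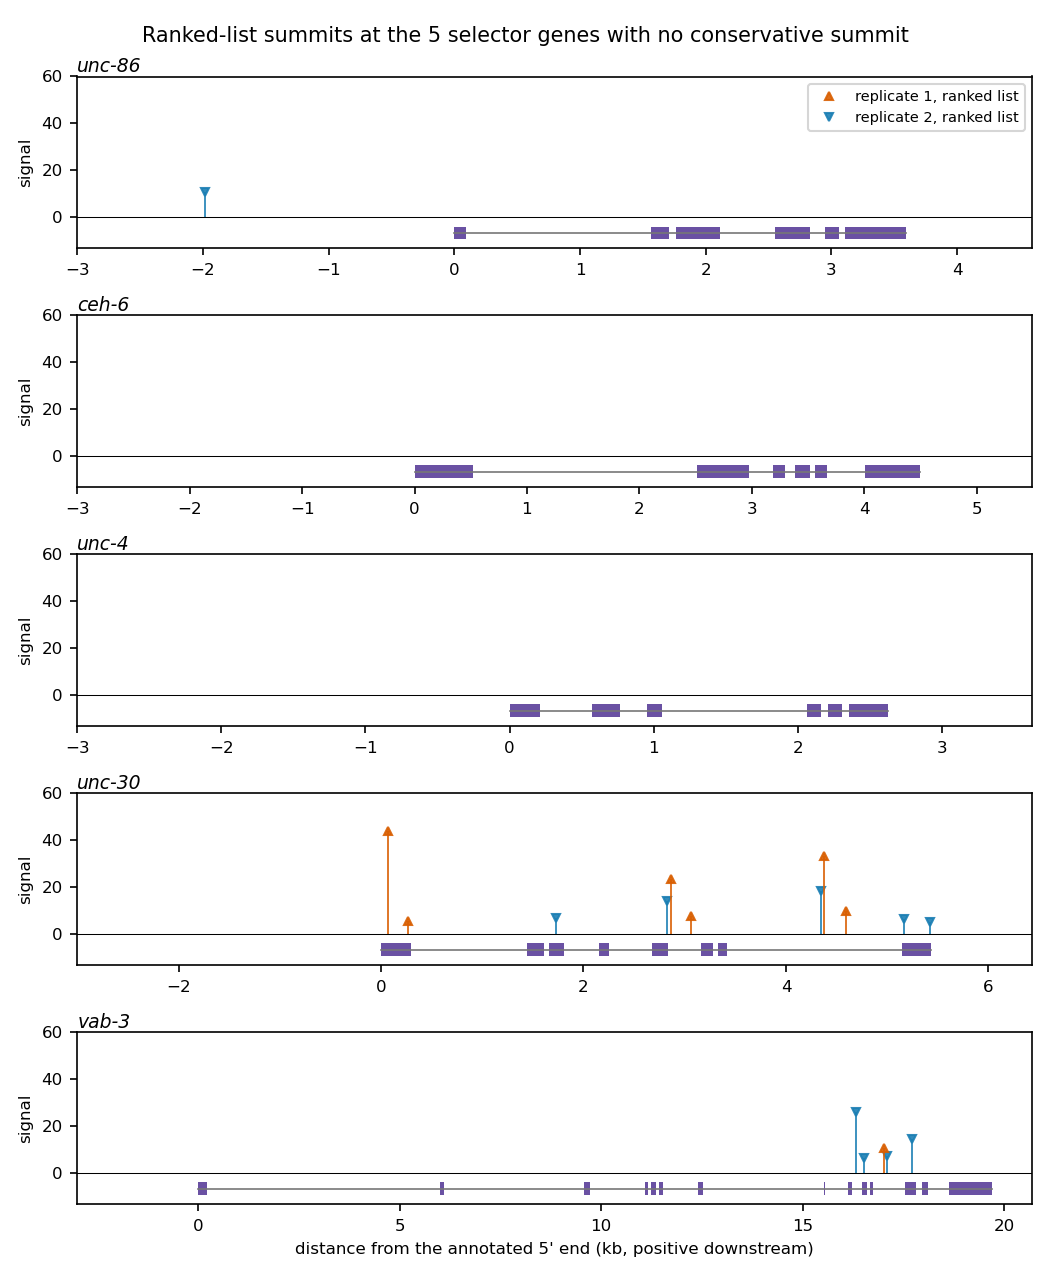
Ranked-list summits at the 5 selector genes with no conservative summit, plotted as authors' signal (no stated unit, 1 scale for all panels) against distance from the annotated 5′ end in kb. Upward triangles are replicate 1, downward triangles replicate 2 and boxes annotated exons. ceh-6 and unc-4 have no summit, and the highest value is 43.9, at unc-30 in replicate 1.

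The highest local GC content had a higher median at genes with a summit, among the 10 genes and among all genes. Its part in the result was not tested. Within 50 bp of the 12 summits the median GC content was 59.9% (46.5% to 67.3%), against a median of 55.4% (quartiles 51.5% and 59.4%) for all summits and 35.4% for the genome. The highest GC content of any stretch of that same length in the window had a median of 65.3% for the 5 selector genes with a summit and 60.4% for the 5 without. Over all genes these medians were 63.4% with a summit and 56.4% without. A longer window holds more stretches, and neither these medians nor the shares given below were matched for window length.

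Taken gene by gene, this highest GC content was 69.3% at unc-42, 65.3% at unc-3 and at zag-1, 64.4% at vab-7 and 58.4% at ceh-18. At unc-42, unc-3, zag-1 and ceh-18 the GC-richest stretch lay under a conservative peak. At zag-1 this was its weakest one, with the summit at +517 bp. At vab-7 it lay at -97 bp, under no peak of the conservative or ranked lists, while the called summit in exon 2 had 60.4%. zag-1 also stood apart in its whole window, with 42.2% GC against 34.3% to 37.7% in the other 9.

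The 2 genes with no peak in any list had the lowest values, 52.5% at ceh-6 and 51.5% at unc-4. Of the 3330 genes in the genome with a highest GC content up to that of ceh-6, 18 (0.541%) had a summit. unc-86 and vab-3 (61.4% each) and unc-30 (60.4%) had none either, although 44.1% of the 2287 genes between 60% and 62% did. The unc-86 stretch was at +21 bp, next to its 5′ end, and no list had a peak over it. That of unc-30, at +53 bp, lay under the replicate 1 ranked peak described above. Of the 817 genes that reached the value of unc-42, 79.8% had a summit.

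**Figure D4:**
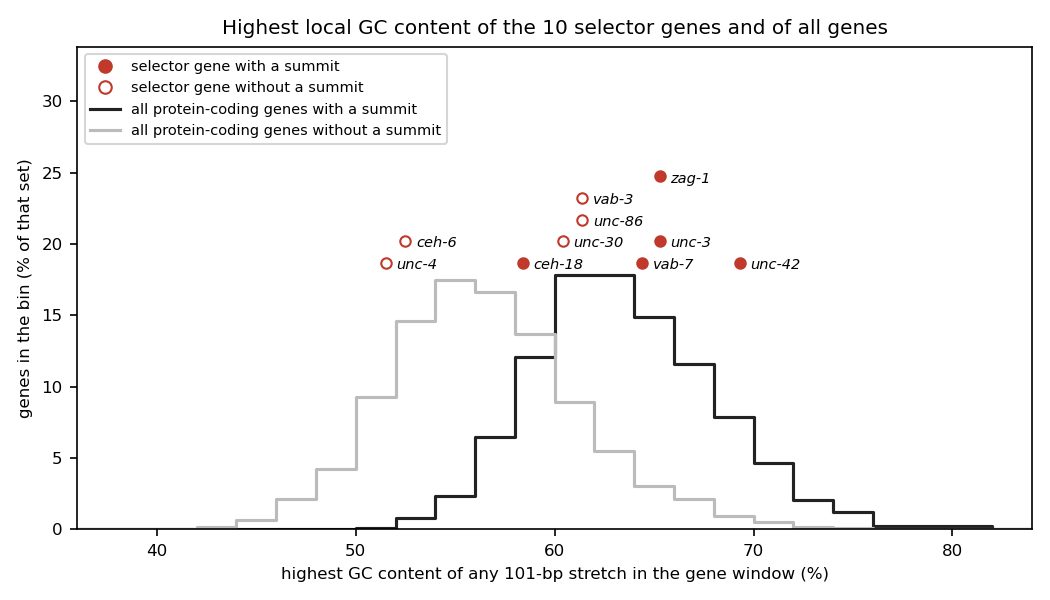
Highest GC content within 50 bp of any base of the gene window (horizontal axis, %), as dots for the 10 selector genes (filled with a conservative summit, open without, stacked only to keep them apart) and as the distribution over all protein-coding genes with a summit (black) and without (grey), in % of each set per 2-point bin. ceh-6 and unc-4 lie lowest at 52.5% and 51.5%, and unc-42 highest at 69.3%.

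By place, 4 of the 12 summits were in promoter windows (33.3%, against 23.8% of all summits), 3 in coding exons (25%, against 37.8%), 4 in introns (33.3%, against 20.2%) and 1 was intergenic (8.33%, against 12.8%). None lay in the promoter window of another protein-coding gene. Annotated non-coding genes (piRNA genes and pseudogenes left out) overlapped 5 of the 12 (41.7%), against 8.12% of all summits. These 5 included all 4 promoter summits, against 169 of the 1684 promoter summits in the genome. The non-coding genes were F46B6.18 at unc-42, Y16B4A.4 at unc-3, ZC64.8 and ZC64.5 at ceh-18, and F28F9.10 and F28F9.16 at zag-1. What they are was not examined, and with 12 summits at 5 genes these shares are a description.

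Motifs were searched on both strands within 50 bp of each summit. CACCTG was present at 3 of the 12 (25%), against 4.97% of all summits, and all 3 were at zag-1: at -1109, +517 and +3279 bp, the sequences printed above. zag-1 is rich in this word over its whole window, with 12 matches or 1.23 per kb, against 0.118 to 0.516 per kb in the other 9. CAGCTG, another E-box, was at 2 of the 12 (16.7%, against 6.2%), the summits at +6 bp of unc-42 and -128 bp of unc-3. Within 100 bp, CACCTG was at 4 of the 12 (33.3%, against 8.72% of all summits), all at zag-1. CAGCTG was then at 3 (25%, against 10.6%). A match is a word in the sequence and is not evidence of binding.

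The homeodomain words TAATTA (0.692% of all summits) and TAATCC (1.68%), the POU octamer ATGCAAAT (0.282%), the E-box CACGTG (3.81%), GAGAGAGA (4.02%) and the COE-type word CCCNNGGG (1.65%) were at none of the 12. Within 100 bp, TAATTA was at 1 of the 12, at vab-7 (8.33%, against 1.98% of all summits). CCCNNGGG was then at 1, at unc-3 (8.33%, against 2.79%), and the rest of these words at none. In the whole windows TAATTA occurred 2 to 18 times per gene.

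Related genes gave shares between 33.3% and 43.8% for the gene window, against 28.4% of all genes. Among all genes with a window of at least 6626 bp the share was 39.1%. The 4 lists had median windows of 7.05 to 10.4 kb, and their shares are too close to 39.1% to set them apart. Of 16 other paired-class and Pax genes, 7 had a conservative summit (43.8%) and 3 had one in the promoter window (18.8%). These 3 were egl-38, a Pax gene of the egg-laying system, with its strongest summit at -581 bp (signal 221, both own lists), pax-3 at +122 bp (signal 97.9) and ceh-45. Next by signal was dsc-1 at +444 bp (signal 151).

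Of 9 partner and downstream regulators of the 10 genes, 3 had a summit (33.3%) and 1 in the promoter window (11.1%). unc-55, a nuclear receptor that separates VD from DD motor neurons, had its strongest summit at +715 bp (signal 176, both own lists). The promoter one belonged to egl-46, a zinc finger factor of mechanosensory neurons, at -167 bp (signal 86.1), and its partner egl-44 had one at +2594 bp (signal 91.9). The Groucho gene unc-37 and the LIM homeodomain gene mec-3, a known target of unc-86, had none.

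Of 16 effector genes known to depend on these selectors, 6 had a summit (37.5%) and 2 in the promoter window (12.5%). The touch channel gene mec-4 had the strongest, at -1583 bp, inside a coding exon of a neighbouring gene (signal 262, both own lists). The promoter summits were at mec-7, a tubulin gene of touch neurons, and at unc-25, which encodes the GABA-making enzyme glutamic acid decarboxylase. The cholinergic genes cha-1 and unc-17, which share a first exon, had 3 and 2 summits in their overlapping windows. The strongest in the unc-17 window, of signal 109, lay at +1210 bp of unc-17, in an intron. The strongest in the cha-1 window, of signal 118 at +11298 bp, lay past the end of cha-1 in the promoter window of another gene. The monoamine transporter gene cat-1 had one at +2709 bp (signal 113). glr-1, unc-47, tph-1, eat-4, mec-17 and the 5 others had none.

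Of 12 other neuronal identity factors, 5 had a summit (41.7%) and 1, lin-11, in the promoter window (8.33%), at +82 bp (signal 126). The Meis-type gene unc-62 had 8 summits, more than zag-1, with a strongest signal of 263, and the ETS gene ast-1 had 4, with a strongest signal of 276 at +474 bp. The share with a promoter summit was 40.0% for the 10 selector genes and 8.82% for all genes. For these 4 lists it lay between 8.33% and 18.8%. With overlapping peaks merged, 3 of the 10 selector genes had a promoter summit in the conservative list. Of the selector genes, only unc-42 also had a promoter summit in the own list of replicate 2.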

How the data were processed

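ZFH-2::GFP was measured by ChIP-seq in 2 biological replicates of 1 group, assigned per the labels. Chromatin was sonicated, per the labels, and the lists use build ce11, per the labels. The deposited lists give for each peak a score (at most 1000, tied by the authors to its irreproducible discovery rate, IDR) and the authors' signal. Its scaling, the aligner, the caller and the control library were not given in the sources used here. For each replicate the authors deposited a thresholded list (4281 and 4696 nuclear peaks, called the own lists) and a longer ranked list (33033 and 32103). The conservative list was made from both replicates together. No control library was analysed here.

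A summit was the peak start plus the listed offset, and mitochondrial peaks (2 in the conservative list) were left out. Genes came from Ensembl release 115. Chromosome names of ce11 and WBcel235 matched apart from the prefix. Peaks matched between lists by an overlap of at least 1 bp, and peaks were ranked by signal within a list. GC content and motifs were taken within 50 bp of a summit, and motifs also within 100 bp as an alternative. Each summit had 1 place: promoter windows took precedence over coding exons, these over untranslated regions, introns and then non-coding genes, and the rest were intergenic. With 1 group no test was made, and counts are set beside all 19973 protein-coding genes or 7085 summits. The assignment of summits to genes was tested on simulated data. The tools were pandas 2.3.3, NumPy 2.4.6 and matplotlib 3.10.9 under Python 3.11.15.

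The 10 genes, the 4 gene lists and the 8 motifs were chosen with earlier results of these data known. Named were the 10 genes, genes of each list with a promoter summit or up to 4 with the strongest summits, and neighbours that share a summit. Genes of the lists named for having no summit were picked after their values were seen. Alternatives were either own list alone, the other thresholded list, 1 summit per merged region, the 50% of peaks with the highest signal, other windows and other overlaps.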

Additional observations from a re-analysis of the deposited data

How the results depend on the processing

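Under every alternative that kept all 10 selector genes, 4 to 5 of them had a summit. These included each replicate alone, gene bodies only and 5 kb upstream. With zag-1 left out, 4 of the others had one. The share of all genes was 21.1% in the own list of replicate 1 and 22.3% in that of replicate 2. Neither was matched for window length. For the other alternatives this share was not computed. The gene that lost its summits was ceh-18, under the stronger 50% of peaks and in the own list of replicate 2. With the stronger 50% the windows held 6 summits in place of 12, and the promoter count was 1 in place of 4. The median rank of the strongest summits was 42% of the list in place of 22.9%. A list cut to 50% lowers such counts, and raises this percentage, by construction. With 1 replicate's own list at a time, the median rank was 32.1% to 46% and the promoter count 1 to 4. Leaving out zag-1 left 6 summits. Under the remaining alternatives the windows held 8 to 13 summits and the promoter count was 3 to 4. Leaving out zag-1, and merging overlapping peaks for the motif and replicate counts, were chosen after seeing the data. No paired analysis was possible because there is 1 group and no test. Depth is unknown, so absence from a list means only that no peak was called.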
